A study of Mus musculus with 8 samples.

Results

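The 7 genes described here, Hmgcs1, Idi1, Fdps, Fdft1, Sqle, Lss and Cyp51, encode enzymes of cholesterol synthesis. They were followed on 8 arrays of RNA from mouse double positive thymocytes, the immature T cells of the thymus that carry both CD4 and CD8. The set carried the label of cholesterol synthesis and uptake genes, but every one of the 7 encodes a synthesis enzyme and none an uptake receptor. All probe sets that the platform annotation assigns to 1 of these symbols alone were taken, which gave 10 of the 12422 probe sets that were not controls, for 7 of the 8251 genes named in the annotation. Fdps had 4 probe sets and each of the other genes 1.

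The series concerns engagement of the T cell receptor with antibodies, and its titles give 4 groups of 2 arrays. These are Vbeta5 and Valpha2, named after variable segments of the receptor's beta and alpha chains, an overnight control, and a control. All 4 groups share the cell type and the molecule, total RNA. The sources used here state no antibody clone, dose, exact time, mouse strain, genotype or age, nor how the control differs from the overnight control beyond its name. Each title also carries a data number, 1 or 2, and every group has 1 array of each number. Below, the 2 values of a group are always given with array 1 first and array 2 second. Nothing says that the 2 arrays came from separate animals or cultures, and each p-value therefore speaks for these samples' own spread, which may be technical.

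Cholesterol is built from acetyl-CoA through mevalonate, which is turned into isoprenoid diphosphates, then into squalene, and finally into lanosterol and the sterols after it. The genes of this route are known targets of the SREBP transcription factors, which are released from the endoplasmic reticulum when membrane sterol is low. Dividing lymphocytes are known to need new sterol for membranes, and isoprenoids made on the way serve to anchor small GTPases.

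The stretches before the start sites of the member genes are shown because SREBP and its partner NF-Y are known to act there in many sterol genes. RefSeq promoter sequences of build GRCm38.p6 matched 4 of the 7 genes, Hmgcs1, Idi1, Lss and Cyp51. Fdps, Fdft1 and Sqle are named only. Each line gives the 250 bases before the start of the gene, read 5′ to 3′ along the gene, and capitals mark the sterol regulatory element TCACNCCAC and the CCAAT box on either strand.
Hmgcs1, chr13:119690101-119690350, plus strand: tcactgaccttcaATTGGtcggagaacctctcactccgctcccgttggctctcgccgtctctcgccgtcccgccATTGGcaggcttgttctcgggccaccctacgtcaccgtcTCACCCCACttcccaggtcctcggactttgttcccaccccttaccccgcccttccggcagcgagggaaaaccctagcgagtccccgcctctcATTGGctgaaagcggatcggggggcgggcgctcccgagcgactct
Idi1, chr13:8885356-8885605, plus strand: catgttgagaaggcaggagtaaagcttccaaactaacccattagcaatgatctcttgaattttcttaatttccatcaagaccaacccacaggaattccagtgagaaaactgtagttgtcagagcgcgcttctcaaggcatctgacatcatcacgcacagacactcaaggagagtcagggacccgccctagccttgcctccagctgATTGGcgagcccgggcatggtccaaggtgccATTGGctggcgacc
Lss, chr10:76531355-76531604, plus strand: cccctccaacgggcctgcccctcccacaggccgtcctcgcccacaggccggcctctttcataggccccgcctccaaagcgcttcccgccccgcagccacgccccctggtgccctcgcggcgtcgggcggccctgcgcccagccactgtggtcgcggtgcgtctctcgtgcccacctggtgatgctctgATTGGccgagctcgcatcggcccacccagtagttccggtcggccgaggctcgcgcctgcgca
Cyp51, chr5:4104698-4104947, minus strand: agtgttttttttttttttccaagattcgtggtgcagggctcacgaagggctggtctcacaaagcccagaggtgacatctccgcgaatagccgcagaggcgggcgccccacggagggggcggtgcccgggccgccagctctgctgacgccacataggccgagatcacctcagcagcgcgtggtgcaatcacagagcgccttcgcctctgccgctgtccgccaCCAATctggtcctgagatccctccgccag

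The element TCACNCCAC was found in 1 of the 4 stretches, that of Hmgcs1, where it begins 137 bases before the start. It occurred in 1.05% of 32851 promoters of the same length. CCAAT was found in 4 of 4, at 7 sites, against 33.8% of all promoters. The GC box GGGCGG, which is bound by Sp1-type factors and is not capitalised above, was found in 4 of 4, at 6 sites, against 32.7% of all promoters. Both strands were searched for each motif, and in these 4 stretches no match overlapped a match of another motif. A match describes the letters only.

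The deposited value for a probe set is a linear signal, an intensity that the labels call normalized. Its mean, after 2% of the probe sets were trimmed at each end, was 250.1 to 250.2 on every array, and the median lay between 73.7 and 110.2. Precision is limited by having so few arrays, and there is no count behind a signal. Tests were made on log2(signal + 16.6), an offset set at the 20th percentile of signals above 0, so that small signals give smaller differences than their ratio would. The dimmest 33.3% of the probe sets, with a mean signal under 40.3, were left out, which kept 8281 probe sets and 8 of the 10 of the member genes. Of these, 2 belong to Fdps. A difference passed when limma's adjusted p, by Benjamini-Hochberg over all 8281, was under 0.05. With 2 arrays in each group, the smallest p of an exact permutation test is 0.333. Array 1 of Valpha2, of the overnight control and of Vbeta5 had a higher ratio of 3′ to 5′ signal for Gapdh (log2 1.72, 0.95 and 0.48) than the other 5 arrays (-0.28 to -0.09).

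For each of the 8 tested probe sets of these enzymes, the highest signal of the series came from a Vbeta5 array. How many of all probe sets had that was not counted, and the members were chosen with earlier results of these data known. Both Vbeta5 arrays lay above all 6 other arrays for 6 of the 8 tested probe sets, those of Hmgcs1, Idi1, Fdps (both probe sets), Sqle and Cyp51. Over all 8281 probe sets, 6.1% had that order. The median difference over the 7 genes was 0.89 on the log2 scale between Vbeta5 and overnight control, against -0.01 over all tested probe sets. None of the 8 passed limma's test across the 4 groups, a moderated F, with adjusted p between 0.207 and 0.869. Over all probe sets 1.03% passed, and before adjustment 4 of the 8 had p under 0.05, against 9.67% of all.

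**Figure D1:**
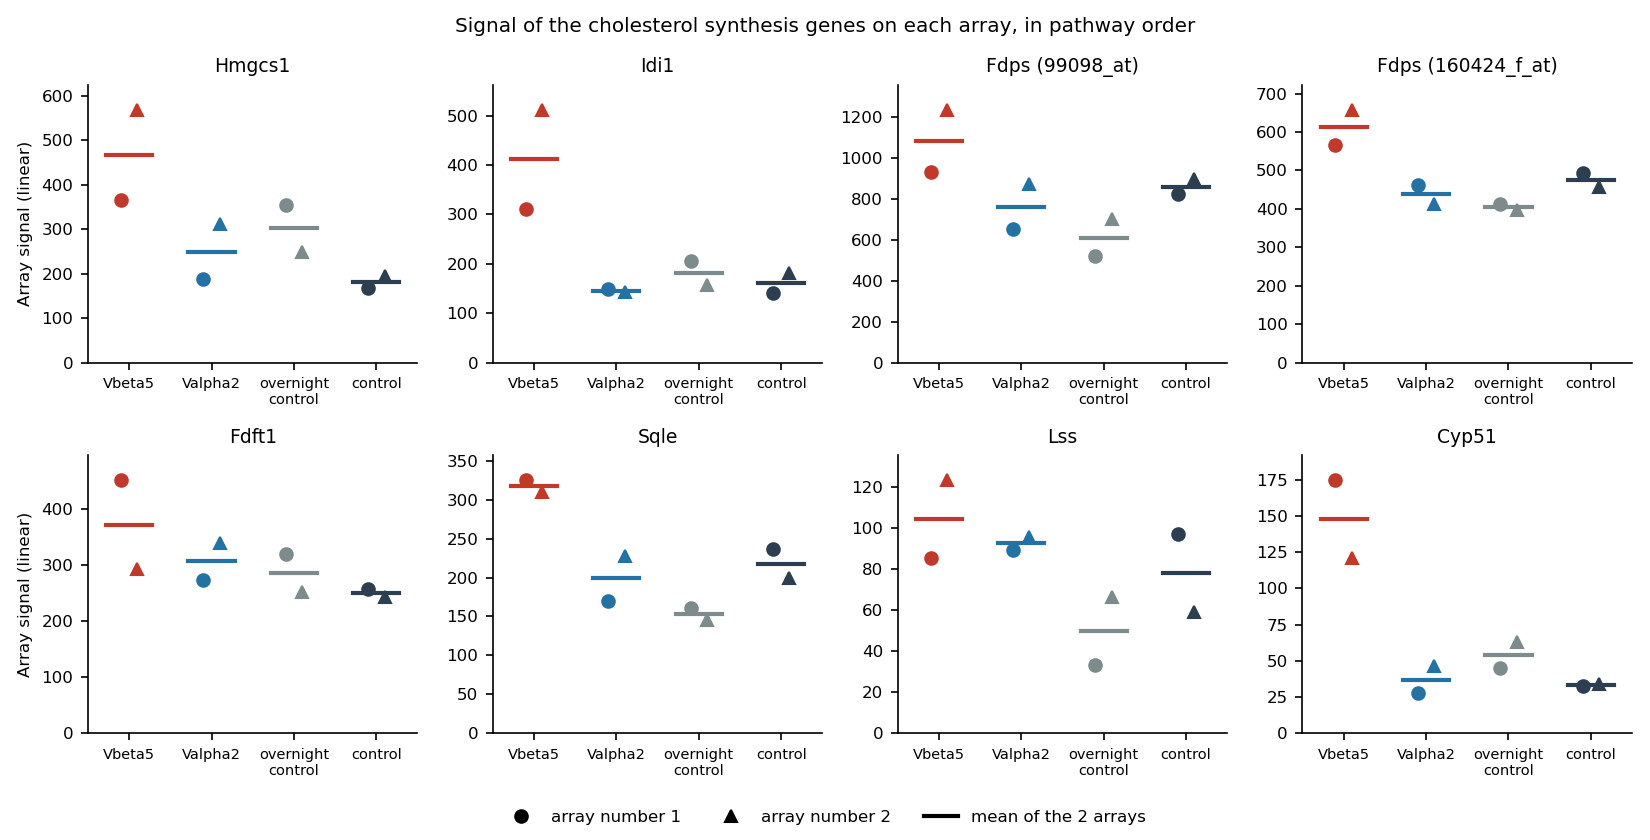
Signal (linear, arbitrary units, vertical axes from 0) of the 8 tested probe sets of the 7 genes, with 1 panel per probe set, the 4 groups along the horizontal axis, circles for array 1, triangles for array 2 and a bar for the mean of 2 arrays. Cyp51 reads 175 and 121 on the Vbeta5 arrays and between 27.5 and 62.7 on the 6 others. The Vbeta5 points of Fdft1 overlap those of Valpha2 and overnight control, and the Vbeta5 points of Lss overlap those of Valpha2 and control.

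Hmgcs1 (94325_at, chromosome 13) encodes the cytosolic HMG-CoA synthase, which makes the substrate from which mevalonate is formed. Its signal was 365 and 568 on the Vbeta5 arrays, 188 and 311 on the Valpha2 arrays, 354 and 249 on the overnight control arrays, and 167 and 194 on the control arrays. Both Vbeta5 arrays were the highest of the 8, although Vbeta5 array 1 was close to overnight control array 1. The log2 difference was 0.59 ± 0.34 (SE) between Vbeta5 and overnight control, 0.87 ± 0.34 between Vbeta5 and Valpha2 and 1.26 ± 0.34 between Vbeta5 and control, with limma adjusted p of 0.749, 0.503 and 0.128. The overnight control arrays were also above both control arrays, by 0.67 ± 0.34 (limma adjusted p = 0.59).

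Idi1 (96269_at, chromosome 13), the isomerase that interconverts the basic isoprenoid diphosphates, gave 312 and 512 on the Vbeta5 arrays. It gave 148 and 142 on the Valpha2 arrays, 205 and 158 on the overnight control arrays and 141 and 181 on the control arrays. The Vbeta5 arrays stood clear of the rest, whose 6 signals lay between 141 and 205. Vbeta5 exceeded Valpha2 by 1.36 ± 0.33, control by 1.24 ± 0.33 and overnight control by 1.08 ± 0.33 on the log2 scale, folds of 2.58, 2.36 and 2.12. The limma adjusted p was 0.189, 0.125 and 0.272, so none of these passed.

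Fdps makes farnesyl diphosphate, the branch point at which carbon goes either to sterols or to the lipid anchors of proteins. Its brightest probe set (99098_at, chromosome 3) gave 932 and 1237 on the Vbeta5 arrays, 652 and 872 on the Valpha2 arrays, 520 and 704 on the overnight control arrays, and 825 and 898 on the control arrays. The overnight control arrays held the low end for Fdps, together with Valpha2 array 1. The log2 difference between Vbeta5 and overnight control was 0.81 ± 0.26 (limma adjusted p = 0.303), and between Vbeta5 and control 0.31 ± 0.26 (limma adjusted p = 0.724).

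The other tested Fdps probe set (160424_f_at) gave 568 and 658 on the Vbeta5 arrays, 463 and 414 on the Valpha2 arrays, 412 and 396 on the overnight control arrays, and 494 and 456 on the control arrays. Its Vbeta5 arrays were again the highest and its overnight control arrays the lowest, and Vbeta5 exceeded overnight control by 0.58 ± 0.23 (limma adjusted p = 0.506). The suffix of this probe set marks probes shared within a sequence family, so its signal may not come from Fdps alone. The remaining 2 Fdps probe sets were dim and not tested. For 162281_at the signals were 50.5 and 60.5 on the Vbeta5 arrays, 69.3 and 13.9 on the Valpha2 arrays, 43.4 and 42.6 on the overnight control arrays, and 15.8 and 21.0 on the control arrays. For 162217_r_at they ran from 6.5 to 57.9, with the highest on overnight control array 1. Its Vbeta5 arrays, at 8.1 and 6.5, lay below both Valpha2 arrays (28.2 and 8.5) and both control arrays (9.8 and 18.7) and overlapped the overnight control arrays (57.9 and 7.7), all but 3 of these signals being under the offset.

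Fdft1 (97518_at, chromosome 14), squalene synthase, commits farnesyl diphosphate to sterols. Its signal was 451 and 293 on the Vbeta5 arrays, 273 and 340 on the Valpha2 arrays, 319 and 251 on the overnight control arrays, and 257 and 243 on the control arrays. The Vbeta5 value rested on array 1, and array 2 lay within the range of the Valpha2 and overnight control arrays. Between Vbeta5 and control the log2 difference was 0.51 ± 0.30 (limma adjusted p = 0.594), with no overlap, and between Vbeta5 and overnight control it was 0.34 ± 0.30 (limma adjusted p = 0.906), with overlap.

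Sqle (94322_at, chromosome 15), squalene epoxidase, carries out a slow, controlled step of the route. Its signal was 325 and 309.8 on the Vbeta5 arrays, 170.0 and 228 on the Valpha2 arrays, 161 and 146 on the overnight control arrays, and 237 and 199 on the control arrays. The Vbeta5 arrays were close to each other and above all the rest, and the overnight control arrays were the lowest. The mean was 318 ± 10.9 on Vbeta5 and 154 ± 10.8 on overnight control (SD, n = 2 arrays each). The log2 difference of 0.97 ± 0.29, a fold of 1.96, had the smallest p among the members in that comparison (limma adjusted p = 0.263).

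Lss (160737_at, chromosome 10), lanosterol synthase, closes the sterol rings and was dimmer, at 85.4 and 123 on the Vbeta5 arrays and 89.5 and 95.8 on the Valpha2 arrays. The overnight control arrays gave 33.4 and 66.6 and the control arrays 97.4 and 59.3. The overnight control arrays lay below both antibody groups, while the control arrays spanned the range between. Vbeta5 exceeded overnight control by 0.89 ± 0.45 (limma adjusted p = 0.668) and control by 0.36 ± 0.45 (limma adjusted p = 0.825), the last with overlap.

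Cyp51 (94916_at, chromosome 5), lanosterol demethylase, acts on the first sterol of the route. It gave 175 and 121 on the Vbeta5 arrays, 27.5 and 46.5 on the Valpha2 arrays, 45.1 and 62.7 on the overnight control arrays, and 32.6 and 33.6 on the control arrays. The Vbeta5 arrays were far above the 6 others, and the overnight control arrays were above the control arrays. The log2 differences were the widest among the members: 1.21 ± 0.46 from overnight control, 1.62 ± 0.46 from Valpha2 and 1.71 ± 0.46 from control, folds of 2.32, 3.08 and 3.27. The limma adjusted p was 0.457, 0.272 and 0.128.

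**Figure D2:**
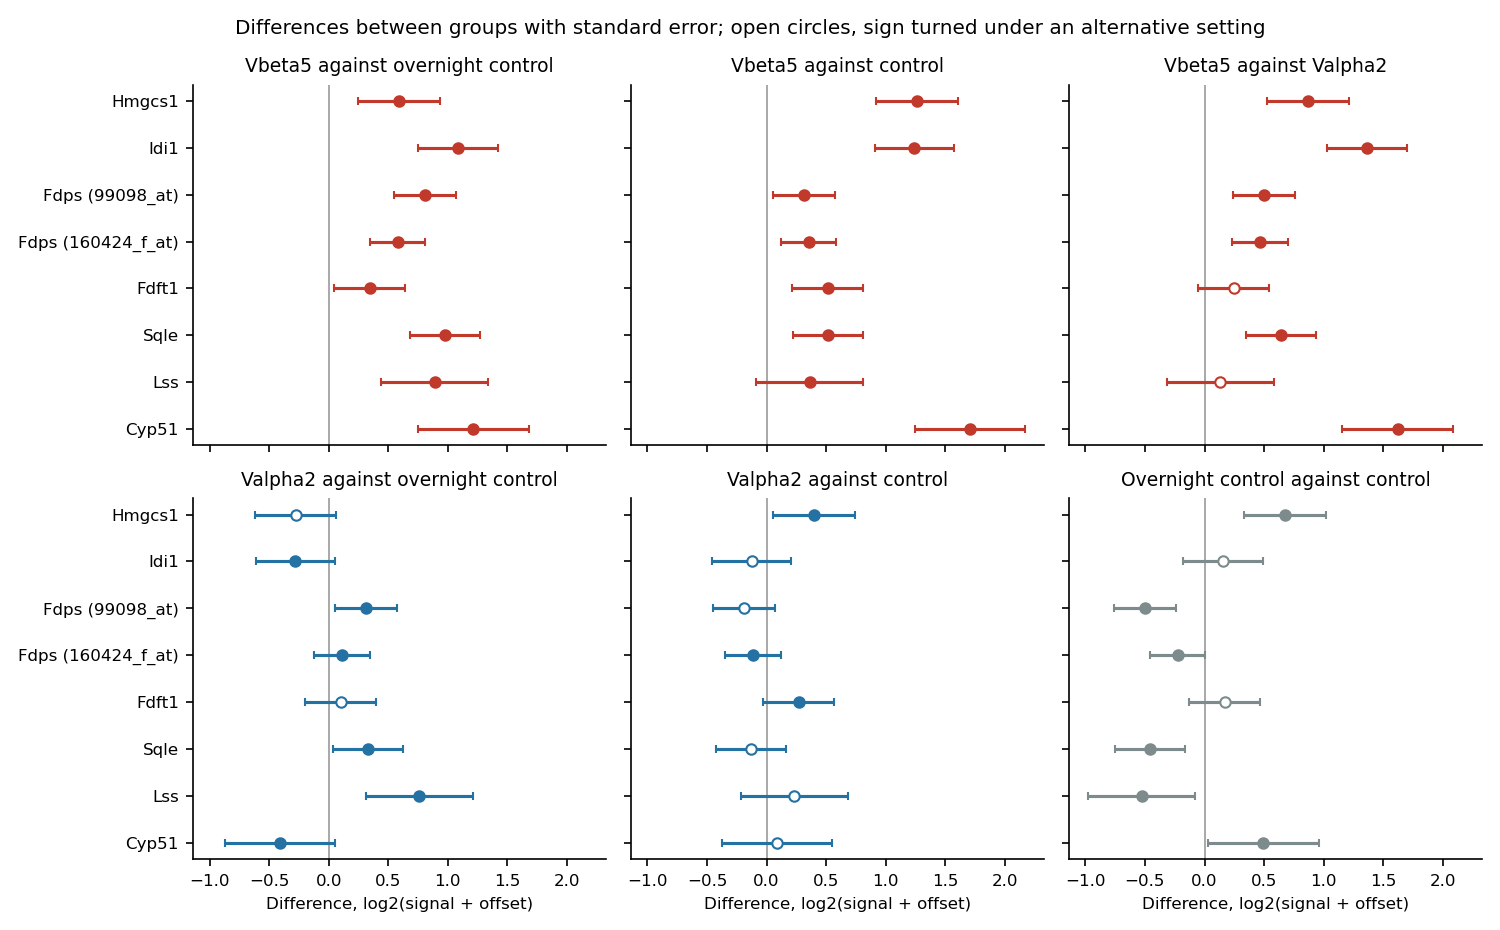
Log2 difference (horizontal axis, points, with SE from limma as bars) of each tested probe set of the 7 genes, for each of the 6 comparisons of groups, with open circles where the sign turned under an alternative setting. All 8 values of the comparison of Vbeta5 with overnight control lie to the right of 0, from 0.34 to 1.21, while the comparison of Valpha2 with overnight control has values on both sides of 0.

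Against the overnight control, the Vbeta5 arrays were higher for 8 of 8 tested member probe sets. The same held when only the arrays numbered 1 were compared, and when only those numbered 2 were, at 8 of 8 each. These counts use the same arrays again and are no separate support. How many of all probe sets were higher in these ways was not counted, and the median difference over all was -0.01. With the arrays numbered 2 alone, 1 per group, the differences ran from 0.21 to 1.60. The part of the 3′ to 5′ ratio in these differences was not tested. Both Vbeta5 arrays lay above both overnight control arrays for 7 of the 8, against 15.8% of all probe sets. No member passed limma's adjusted test in either direction, where 0.35% of all probe sets were higher and 0.266% lower. Before adjustment 5 of the 8 had p under 0.05, against 8.43% of all. The 95% confidence intervals of the members' log2 differences had a median width of 1.40.

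Against the control, Vbeta5 was likewise higher for all 8, a direction that was not counted over all probe sets. Both its arrays lay above both control arrays for 7, against 29.3% of all probe sets. None passed limma's adjusted test (0.628% of all probe sets were higher and 1.01% lower), and 3 of 8, those of Hmgcs1, Idi1 and Cyp51, had an unadjusted p under 0.05, against 11.1% of all. The median over the genes was 0.52, beside 0.08 over all tested probe sets. Without the Vbeta5, Valpha2 and overnight control arrays numbered 1, Hmgcs1 (1.57 ± 0.32, limma adjusted p = 0.0129) and Idi1 (1.58 ± 0.35, limma adjusted p = 0.0183) passed, in a fit where 3.97% of all probe sets passed, either way, against 1.64% with all arrays. That fit takes its spread from the 2 control arrays alone, pooled over probe sets, and assumes that the lone arrays vary as they do.

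Between the antibodies, Vbeta5 lay above Valpha2 on both arrays for 6 of 8, against 21.7% of all probe sets. The median gene difference was 0.64, beside 0.02 over all. None passed limma's adjusted test (0.0966% of all probe sets were higher and 0.181% lower), and 3 of 8 had an unadjusted p under 0.05, against 8.18% of all. For Fdft1 and Lss the sign turned with the setting.

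Between Valpha2 and overnight control, none of the 8 passed limma's adjusted test, which 0.0% of all probe sets passed, and none reached an unadjusted p of 0.05, against 1.59% of all. Its arrays were above both overnight control arrays for 3 of 8, against 10.5% of all, and below both for 1, Idi1, against 10.2%. The median gene difference was 0.10, beside -0.02 over all. The widest were Lss at 0.76 ± 0.45 and Cyp51 at -0.41 ± 0.46. Against control, Valpha2 stood above on both arrays for Fdft1 alone, against 25.8% of all probe sets, and below both for none, against 16.7%, and none of the 8 passed limma's adjusted test (0.0362% of all probe sets were higher and 0.362% lower) or reached an unadjusted p under 0.05, against 7.4% of all. The median over the genes was 0.09, and 0.07 over all.

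The overnight control itself differed from the control in a mixed way. Hmgcs1 and Cyp51 were higher on both overnight control arrays, 2 of 8, against 21.6% of all probe sets. Both Fdps probe sets and Sqle were lower on both, 3 of 8, against 16.3%. None of the 8 passed limma's adjusted test (0.0242% of all probe sets were higher and 0.193% lower), and none had an unadjusted p under 0.05, against 9.06% of all. The median gene difference was 0.16, beside 0.10 over all. The comparisons above share arrays, so their values are not independent of each other. In 11 of the 48 pairs of a member probe set and a comparison the sign turned under an alternative setting, and those pairs are given here by their signals.

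Across the 8 arrays, the member genes moved together to unequal degrees. Pearson's r between the log2 signals of 2 genes ran from 0.07, for Fdft1 with Lss, to 0.84, for Hmgcs1 with Idi1, with a median of 0.57 over 21 pairs. The correlation of each gene with the mean of the 6 others was 0.86 for Sqle, 0.83 for Cyp51 and 0.79 for Idi1, but 0.50 for Fdft1 and 0.45 for Lss. All these rest on 8 arrays that share groups, data number and RNA quality. No r between pairs of other probe sets was computed, and the members were chosen with earlier results of these data known. The median over the genes of the deviation from the gene's own mean was 0.57 and 0.61 on the Vbeta5 arrays, -0.31 and 0.11 on the Valpha2 arrays, -0.26 and -0.19 on the overnight control arrays, and -0.20 and -0.28 on the control arrays. The Vbeta5 arrays thus stood apart, and the other groups overlapped.

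Of the genes outside the lists, 6 had the profile nearest to the mean of the members, with r between 0.976 and 0.991 over the 8 arrays, where all tested probe sets had a median r of 0.04. They were Sh3bp2, an adaptor protein, Dusp2, a phosphatase of MAP kinases, Nfatc1, a calcium-responsive transcription factor, Ier2, an immediate early gene, Dipk2a, and Egr2, a transcription factor of the early response to T cell receptor signals. Egr2 (102661_at) read 2200 and 3141 on the Vbeta5 arrays, 279.8 and 536 on the Valpha2 arrays, 344 and 210.3 on the overnight control arrays, and 226 and 314 on the control arrays. Both Vbeta5 arrays were far above the rest, and Valpha2 array 2 was the highest of the others. These genes were chosen for this likeness, so their levels are a description only.

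The list of other synthesis enzymes had 14 genes, 10 with a probe set named here and 9 tested. None passed limma's adjusted test in any of the 6 comparisons, and the median difference between Vbeta5 and overnight control was 0.14, beside 0.89 for the members and -0.01 over all. Members and lists were chosen with earlier results of these data known, so the gap between them is a description only. Dhcr7 (98989_at), which carries out the last step of one arm of the route, gave 297 and 249 on the Vbeta5 arrays, 132 and 198 on the Valpha2 arrays, 160.0 and 195 on the overnight control arrays, and 281 and 199 on the control arrays. The Vbeta5 arrays were above both overnight control and both Valpha2 arrays but overlapped the control arrays, and the difference between Vbeta5 and overnight control was 0.58 ± 0.33 (limma adjusted p = 0.726). Msmo1 (160388_at), the sterol methyl oxidase, gave 79.8 and 174 on the Vbeta5 arrays, 152 and 129 on the Valpha2 arrays, 118 and 83.4 on the overnight control arrays, and 66.7 and 37.5 on the control arrays. It was lowest on the control arrays, and Valpha2 exceeded control by 1.22 ± 0.45 (limma adjusted p = 0.517). Nsdhl (98630_at) gave 315 and 301 on the Vbeta5 arrays, 162 and 157 on the Valpha2 arrays, 329 and 192 on the overnight control arrays, and 209 and 241 on the control arrays. Its Vbeta5 arrays were above both Valpha2 and both control arrays and overlapped the overnight control arrays, and Vbeta5 exceeded Valpha2 by 0.88 ± 0.32 (limma adjusted p = 0.425). Another Nsdhl probe set (98631_g_at) gave 237.4 and 309.4 on the Vbeta5 arrays and 120.7 and 215.9 on the Valpha2 arrays, without overlap. The dimmest (93868_at) gave 95.3 and 142.2 on the Vbeta5 arrays and 83.4 and 114.6 on the Valpha2 arrays, which overlap. Mvd (160770_at) gave 40.3 and 57.0 on the Vbeta5 arrays and 85.5 and 57.8 on the overnight control arrays, so that the arrays numbered 2 were nearly equal. The difference between Vbeta5 and overnight control was -0.43 ± 0.52 (limma adjusted p = 0.968).

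**Figure D3:**
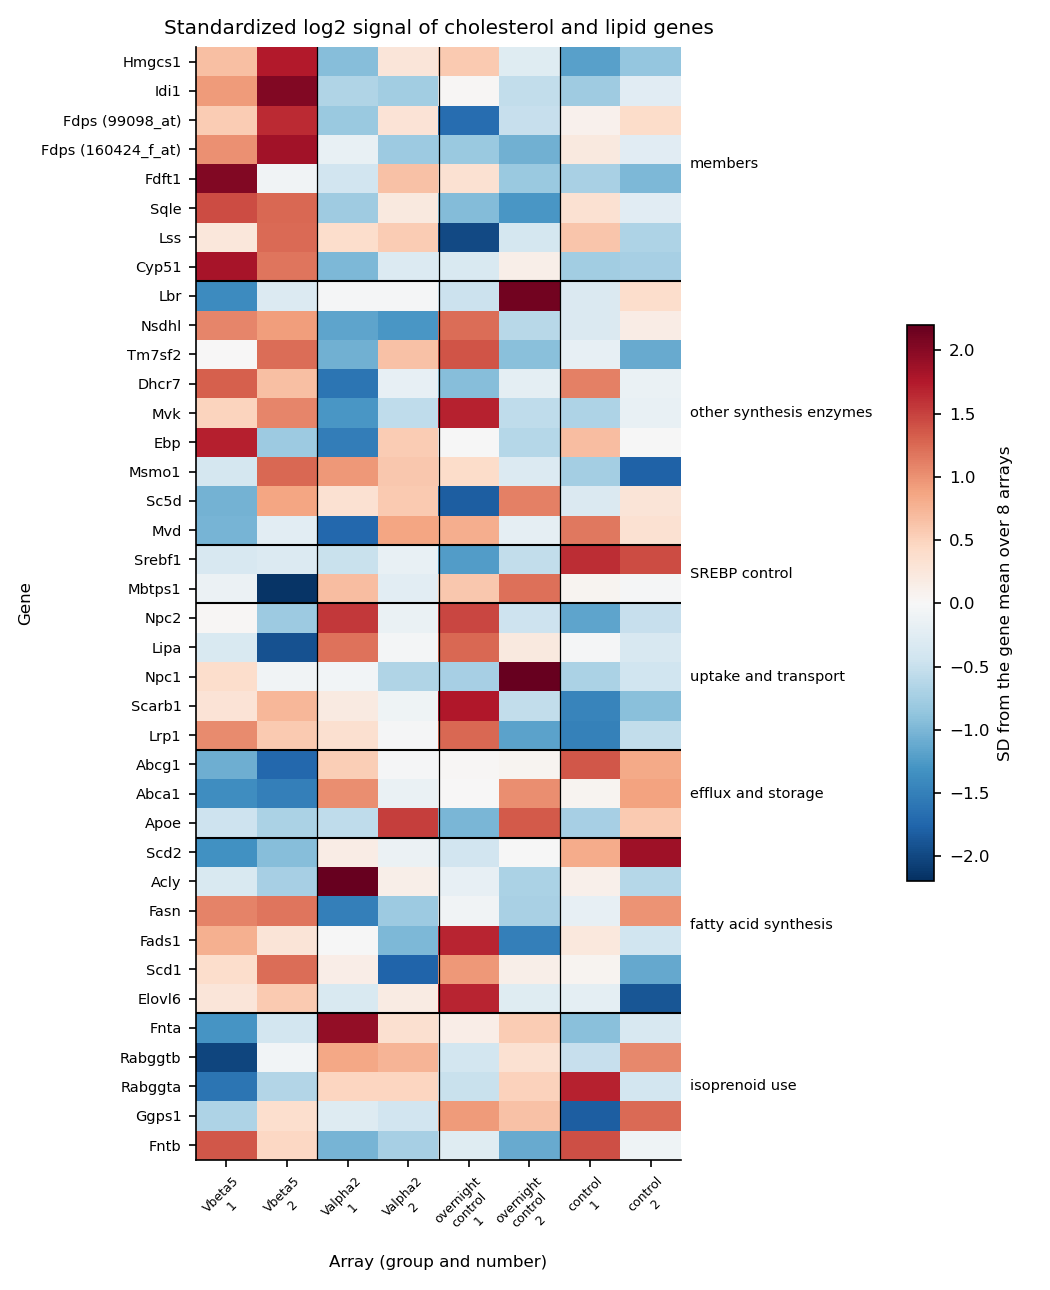
Log2 signal of the tested genes of the members and 6 lists, standardized to the mean and SD of each gene over the 8 arrays (colour scale in SD), with arrays across and genes down. The upper block, the members, is mostly red on the Vbeta5 columns, whereas the lists below it are of both colours there.

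Among the genes of sterol efflux and storage, Abcg1 (160612_at), a sterol exporter, fell in Vbeta5 arrays relative to control arrays, with 562 and 447 on Vbeta5, 989 and 811 on Valpha2, 824 and 838 on overnight control, and 1315 and 1090.4 on control arrays. Both Vbeta5 arrays were the lowest of the 8, and the log2 difference from control was -1.23 ± 0.23 (limma adjusted p = 0.0267). It was -0.71 ± 0.23 from overnight control (limma adjusted p = 0.328). The call against control was lost with a common median (-1.43, limma adjusted p = 0.0531) and without the variance trend (-1.23, 0.114). It was also lost without Vbeta5 array 1 (-1.39, limma adjusted p = 0.0809), Vbeta5 array 2 (-1.07, 0.228), control array 1 (-1.10, 0.343) or control array 2 (-1.36, 0.145). Over the 3 tested genes of efflux and storage, of 9 listed, 1 fell in Vbeta5 against control, where 1.01% of all probe sets were lower. The median difference between Vbeta5 and overnight control was -1.01, which is the value of Apoe (95356_at). Apoe gave 29.9 and 20.9 on the Vbeta5 arrays and 11.3 and 238 on the overnight control arrays. These overlap, and the difference rests on overnight control array 2.

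Abca1, another exporter, had 1 probe set (94354_at) at 12.1 and 9.0 on the Vbeta5 arrays, 189 and 62.3 on the Valpha2 arrays, 73.1 and 191 on the overnight control arrays, and 76.8 and 169 on the control arrays. The Vbeta5 signals are under the offset of 16.6, and the difference from overnight control was -2.33 ± 0.61 (limma adjusted p = 0.182). The other Abca1 probe set (97198_at) disagreed, with 77.7 and 14.1 on the Vbeta5 arrays and 15.5 and 76.3 on the overnight control arrays, which overlap.

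Of the 11 uptake and transport genes listed, 5 were tested and none passed limma's adjusted test. Between Vbeta5 and overnight control, 1 had a positive difference and 4 a negative one, with a median difference between Vbeta5 and overnight control of -0.16. Lipa (102123_at), the lysosomal acid lipase that frees cholesterol from its esters, gave 660.0 and 247 on the Vbeta5 arrays, 1659 and 787 on the Valpha2 arrays, 1720.5 and 921 on the overnight control arrays, and 799 and 650.2 on the control arrays. The arrays numbered 1 were higher than those numbered 2 in all 4 groups, and the Vbeta5 arrays lay below both overnight control arrays. The difference from overnight control was -1.60 ± 0.48 (limma adjusted p = 0.262). With the data number as a replicate block it passed (limma adjusted p = 0.00898), in a fit where 1.51% of all probe sets passed, against 0.616% without the block. Without the Vbeta5, Valpha2 and overnight control arrays numbered 1 the difference was -1.83.

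Of the regulators of SREBP, 2 of 7 listed genes were tested and none passed. Srebf1 (93264_at), an SREBP gene, had 1088 and 1100 on the Vbeta5 arrays, 1064 and 1124 on the Valpha2 arrays, 937 and 1055 on the overnight control arrays, and 1532 and 1482 on the control arrays. The control arrays were the highest and the other 3 groups were close to each other. Vbeta5 was lower than control by a log2 difference of -0.46 ± 0.20 (limma adjusted p = 0.439). Insig1 (92396_at), which holds SREBP back, was dim and not tested, with signals between 6.2 and 55.5. Mbtps1 (95754_at), a protease that cuts SREBP, had a difference of -0.55 ± 0.24 between Vbeta5 and overnight control (limma adjusted p = 0.575).

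Among the fatty acid genes, which share SREBP control, 6 of 10 listed genes were tested. Of these, 1 fell in Vbeta5 against control, where 1.01% of all probe sets were lower. Scd2 (95758_at), a desaturase, gave 493 and 636 on the Vbeta5 arrays, 1257 and 1049 on the Valpha2 arrays, 875 and 1139 on the overnight control arrays, and 1898.5 and 3603 on the control arrays. Scd2 was lowest on the Vbeta5 arrays and highest on the control arrays. The difference between Vbeta5 and overnight control was -0.82. From control, the difference was -1.37 for overnight control and -1.18 for Valpha2, and neither passed. For Vbeta5 against control it was -2.19 ± 0.31 and passed (limma adjusted p = 0.0113). The call was lost without Vbeta5 array 1 (-2.01, limma adjusted p = 0.0533), without control array 2 (-1.73, 0.114), and without the variance trend (-2.19, 0.0652). A second Scd2 probe set (162077_f_at) had a difference of -0.60 ± 0.30 (limma adjusted p = 0.515). Fasn (98575_at), fatty acid synthase, gave 439 and 447 on the Vbeta5 arrays against 346 and 304 on the overnight control arrays, without overlap, and the difference was 0.43 ± 0.26 (limma adjusted p = 0.754).

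**Figure D4:**
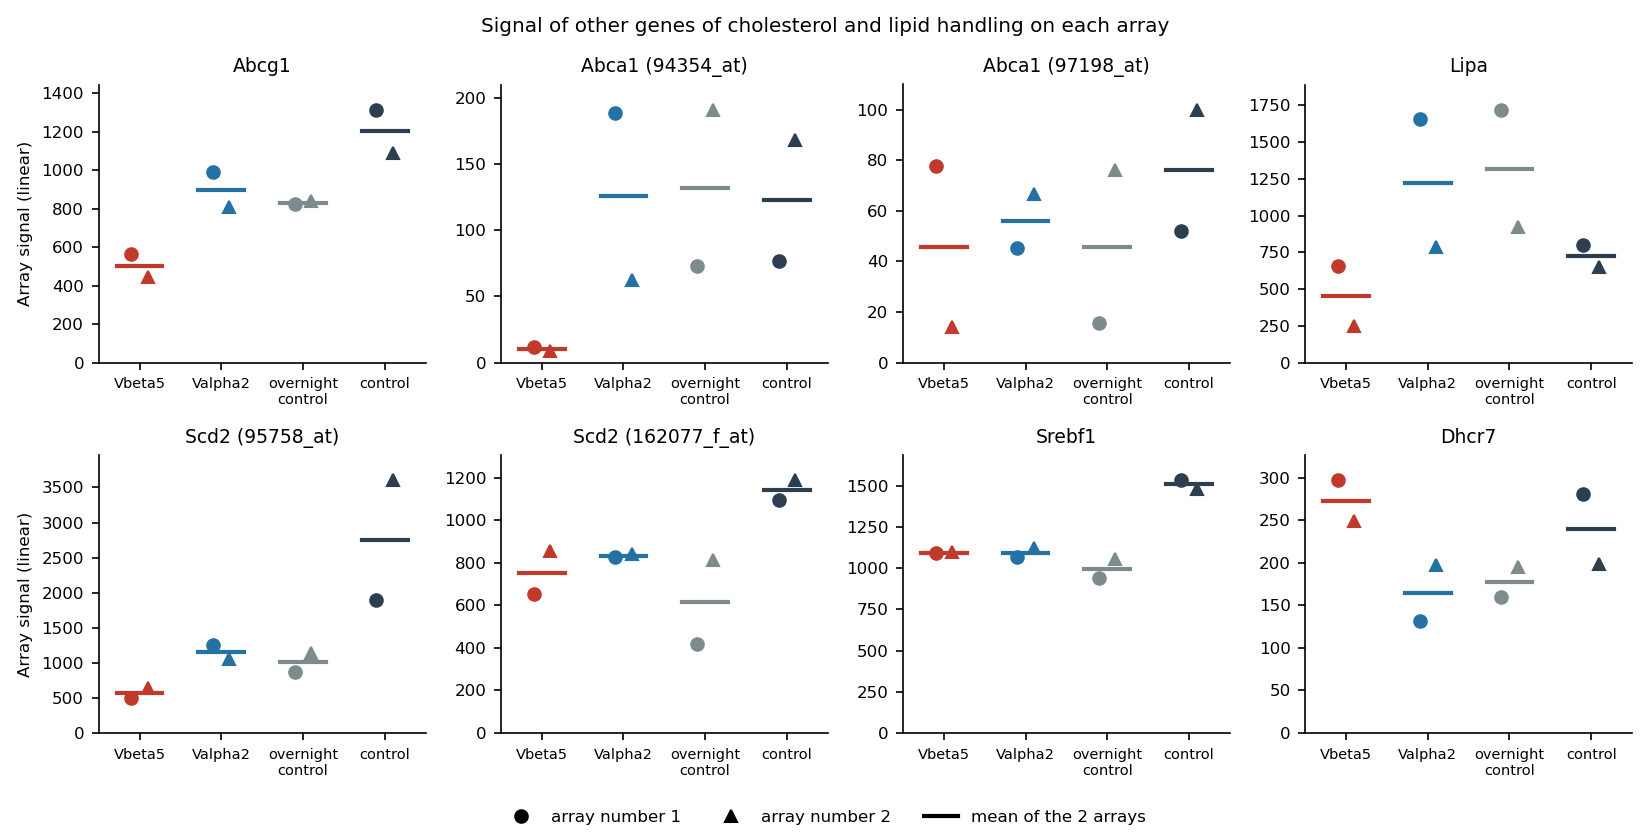
Signal (linear, arbitrary units, vertical axes from 0) of lipid genes outside the members, with 1 panel per probe set, the 4 groups along the horizontal axis, circles for array 1, triangles for array 2 and a bar for the mean of 2 arrays. Abcg1 lies at 562 and 447 on the Vbeta5 arrays, below the 6 others, and Scd2 (95758_at) is highest on the control arrays.

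Of the genes that use isoprenoids, 5 of 9 listed were tested, none passed limma's adjusted test, and the median difference between Vbeta5 and overnight control was -0.25.

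The marker genes of double positive thymocytes were measured for 9 of 12, and none was listed at 0. Their summed signal was 16972 to 29559 on the Vbeta5 arrays, 47616 to 59254 on the Valpha2 arrays, 56397 to 57991 on the overnight control arrays, and 44460 to 48306 on the control arrays. Of the 9, 2 fell on the Vbeta5 arrays relative to the overnight control arrays (Rag1 and Rag2, which make the receptor rearrangement enzyme) and 0 rose, each by its brightest probe set. A dimmer Rag1 probe set did not pass. The lists for B cells, macrophages or monocytes, dendritic cells, stroma or epithelium, erythroid cells, granulocytes and NK or gamma delta T cells had 0 that rose and 0 that fell. They had 4, 3, 4, 3, 2, 3 and 1 tested genes, in that order. All these counts are for Vbeta5 against overnight control, where 0.35% of all probe sets were higher and 0.266% lower. With so few genes tested, 0 calls does not show that a list was unchanged. The summed signal of the B cell list was 449 to 476 on the Vbeta5 arrays, 647 to 721 on the Valpha2 arrays, 716 to 781 on the overnight control arrays, and 283 to 433 on the control arrays. For macrophages or monocytes it was 461 to 646 on Vbeta5, 332 to 426 on Valpha2, 385 to 783 on overnight control, and 306 to 334 on control arrays. Dendritic cell markers summed to 869 to 984 on Vbeta5, 487 to 661 on Valpha2, 431 to 1196 on overnight control, and 504 to 558 on control arrays. Stromal or epithelial markers summed to 932 to 1179 on Vbeta5, 767 to 911 on Valpha2, 557 to 1866 on overnight control, and 740.1 to 797 on control arrays. In the last 3 lists the Vbeta5 sums lay above those of Valpha2 and control and overlapped those of overnight control. The same order held for NK or gamma delta T cell markers, at 128 to 148 on Vbeta5, 40.4 to 95.0 on Valpha2, 59.3 to 209 on overnight control, and 51.7 to 117 on control arrays. The sums take each gene by its brightest probe set and depend on that choice. Most of the stromal sum on the Vbeta5 arrays came from Col1a2 (161156_r_at, 766 and 582). Another Col1a2 probe set (101130_at) gave 25.2 and 13.5 there. For Csf1r, a macrophage or monocyte marker, the dimmer tested probe set (104354_at) lacked this order. It gave 53.2 and 53.1 on Vbeta5, 99.5 and 45.3 on Valpha2, and 59.1 and 52.6 on control arrays. Granulocyte markers summed to 238 to 305 on Vbeta5, 238 to 284 on Valpha2, 189 to 490.5 on overnight control, and 152 to 197 on control arrays, and the erythroid sums overlapped in all 4 groups. Fewer cells of a type and less RNA per cell cannot be told apart in these samples. The part of the thymocyte markers and of the other cell types' markers in the members' values was not tested.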

How the data were processed

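RNA from double positive thymocytes was measured on 8 arrays. The intensity values of 12488 probe sets, deposited by the authors in 1 table, are normalized per the labels. Which software and scaling were used is not stated in the sources at hand. Groups came from the sample titles. The 66 control probe sets were left out. Platform annotation gave 1 symbol for 10833 of the 12422 others, several for 396 and none for 1193, and the genes of 10817 probe sets were found in RefSeq.

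Each intensity was turned into log2(signal + 16.6). A group-means model of all 8 arrays was fitted with limma 3.58.1 in R 4.3.3 (eBayes with a variance trend), and differences were adjusted by Benjamini-Hochberg at 0.05 over 8281 probe sets. The fit was tested on simulated data. A gene with several probe sets is shown by its brightest in medians and correlations. Genes outside the members were named from a list of names, by the smallest p across the 4 groups in each list (some are summarised only), and by the 6 profiles most like the members' mean. Members, lists and alternatives were chosen with earlier results of these data known.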

Additional observations from a re-analysis of the deposited data

How the results depend on the processing

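With other normalizations, offsets, filters, variance models, samples in the fit and probe-set rules, 0 member probe sets passed limma's test in each of the 6 comparisons and across the 4 groups, of 8 tested (10 with no filter, 6 without the dimmest 50%, 7 as gene means), and leaving out 1 array at a time gave 0 to 0. Some of these fits passed few or no probe sets of any gene, so their zeros do not bear on stability. For Vbeta5 against control, 2 passed without control array 1 and 0 without control array 2. For Vbeta5 against overnight control, 0 passed without the variance trend or without Vbeta5 array 2. For Vbeta5 against Valpha2, 0 passed with a common median, without the trend, or with only the arrays compared. The same held without Vbeta5 array 2, Valpha2 array 1 or either control array. For Valpha2 against overnight control, 1 passed without Valpha2 array 2 and 0 in all other fits. The remaining comparisons and the test across the 4 groups also had 0 without the trend. In these, few or no probe sets passed without either control array. The same held for overnight control against control without overnight control array 1, and for Valpha2 against control without Valpha2 array 1. As for the members, 0 passed in every setting, with a single exception. The exception was the fit without the Vbeta5, Valpha2 and overnight control arrays numbered 1, in which 2 passed between Vbeta5 and control (Hmgcs1 and Idi1) and 1 passed across the 4 groups (Idi1). In that fit 3.97% and 3.60% of all probe sets passed, against 1.64% and 1.03% with all arrays. The data numbers were tried as a replicate block: 0 members passed in each comparison and across the 4 groups. In that fit 1.51% of all probe sets passed for Vbeta5 against overnight control, against 0.616% without the block. Across the 4 groups 2.93% passed, against 1.03%. The median differences were the same, 0.89 for Vbeta5 against overnight control. Same-numbered arrays of different groups deviated together with r between 0.10 and 0.35. The titles do not say what a shared number marks, so the block was kept as an alternative to the main fit.

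The median difference over the 7 genes was 0.89 for Vbeta5 against overnight control, 1.05 with a floor in place of the offset, and 0.66 to 0.98 with 1 array left out. For Vbeta5 against Valpha2 it was 0.64, and 0.45 to 0.84 with 1 array left out. For Vbeta5 against control it was 0.52, 0.32 with a common median, and 0.48 to 0.81 with 1 array left out. For Valpha2 against overnight control it was 0.10, 0.30 without the 3 arrays numbered 1, and -0.063 to 0.25 with 1 left out. For overnight control against control it was 0.16, -0.072 with a common median, -0.018 without the 3 arrays, and -0.018 to 0.31 with 1 left out. For Valpha2 against control it was 0.09, -0.12 with quantile normalization, -0.12 without the dimmest 50%, 0.27 without the 3 arrays, and -0.097 to 0.27 with 1 left out. The cause of these moves was not tested. A common median moves all probe sets by -0.23, -0.20 and -0.14 for overnight control, Vbeta5 and Valpha2 against control. In a check chosen after seeing the data, 4 of 8 member probe sets had both Vbeta5 arrays above all others with a common median, against 4.5% of all, and 6 to 7 with 1 array left out, against 6.59% to 15.1% of all. Arrays per group limit precision, and Lss and Cyp51 are the dimmest of the tested members.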
